A study of Mus musculus with 7 samples.

Results

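The galectin genes comprised 6 of the 12393 genes named by probe sets that point to a single gene, and were Lgals1, Lgals3, Lgals4, Lgals8 and Lgals9 together with Lgals3bp, which encodes a galectin-binding glycoprotein. They were picked by symbol, and 8 of 20380 single-gene probe sets named them. Where a gene had several probe sets, the brightest (highest mean over all arrays) stands for it and the other is given beside it. The genes were selected when earlier results of these arrays were known, a large rise of Lgals3 in heterozygous cells among them, so the values of Lgals3 are a description and the p-values below give the place of each gene in a fit of all genes.

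Expression was measured on 7 Affymetrix arrays of RNA from sorted mouse glioma cells. Tumours had been started with RCAS PDGFB GFP, an avian retroviral vector for platelet-derived growth factor B and green fluorescent protein that enters only cells with the tv-A receptor, which the mice expressed from the Nestin promoter in neural progenitors. Injection into the brain was on postnatal day 1 to 3, and GFP+ DAPI- cells were collected when symptoms appeared or by 12 weeks. The groups were Ptprd+/+p16-/- (wild type, n = 2), Ptprd+/-p16-/- (heterozygous, n = 2) and Ptprd-/-p16-/- (null, n = 3), so all mice, the controls included, lacked the cell cycle inhibitor p16, and their background mixed C57/BL6 with FVB/N. Ptprd encodes a receptor-type tyrosine phosphatase. The labels call the arrays biological replicates without saying whether a sample was the tumour of 1 mouse, and p-values measure the spread between these samples.

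Galectins are lectins that bind galactose-ending sugar chains of glycoproteins through a conserved carbohydrate recognition domain. They are made in the cytosol and leave the cell without a signal peptide, so they act both inside the cell, for example at damaged lysosomes, and outside it, where they cross-link receptors and matrix. Galectin-1 forms dimers of a single domain, galectin-3 joins a single domain to a tail through which it oligomerises, and galectins 4, 8 and 9 carry a pair of linked domains. In brain tumours, galectin-1 and galectin-3 are known for expression in astrocytic and mesenchymal tumour cells, and galectin-3 also marks activated microglia and macrophages.

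Promoter sequence is shown for Lgals3, the member with the largest difference between genotypes, and for Lgals3bp and Lgals9, which share their highest and lowest array. RefSeq tables of the build GRCm38.p6 held a promoter for 5 of the 6 genes. Each sequence covers the 250 bases before the annotated start of transcription, 5′ to 3′ on the gene's strand, and capitals mark the motifs found. The Lgals3 sequence lies at chr14:47373610-47373859 on the plus strand, that of Lgals3bp at chr11:118401960-118402209 on the minus strand and that of Lgals9 at chr11:78984925-78985174 on the minus strand.
Lgals3: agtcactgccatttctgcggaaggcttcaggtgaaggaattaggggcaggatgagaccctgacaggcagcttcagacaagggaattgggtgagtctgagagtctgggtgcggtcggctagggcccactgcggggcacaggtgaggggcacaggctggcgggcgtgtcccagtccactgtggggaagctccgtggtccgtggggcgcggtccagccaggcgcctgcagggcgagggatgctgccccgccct
Lgals3bp: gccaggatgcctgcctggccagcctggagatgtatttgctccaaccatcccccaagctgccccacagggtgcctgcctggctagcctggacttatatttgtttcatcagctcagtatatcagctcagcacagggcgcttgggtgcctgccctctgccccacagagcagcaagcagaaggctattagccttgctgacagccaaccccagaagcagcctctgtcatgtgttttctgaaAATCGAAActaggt
Lgals9: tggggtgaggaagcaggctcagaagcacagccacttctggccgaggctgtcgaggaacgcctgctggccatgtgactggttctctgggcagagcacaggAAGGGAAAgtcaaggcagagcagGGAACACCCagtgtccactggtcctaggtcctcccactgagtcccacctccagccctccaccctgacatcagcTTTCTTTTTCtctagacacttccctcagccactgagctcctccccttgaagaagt
Both strands were searched for TTCNNNGAA (STAT), TGANTCA (AP-1), the core of the interferon-stimulated response element (GAAA repeated after 2 unspecified bases), GGGNNTTCC (kappa-B) and AANNGAAA (core of the interferon regulatory factor motif, which every response element core contains and which was added after the Lgals3bp sequence had been read). The Lgals9 window held the response element core starting 55 bases before the start of transcription, read there as TTTCTTTTTC on the gene's strand. It also held the kappa-B letters and AANNGAAA at 2 places, 1 of them inside that match. The Lgals3bp window held AANNGAAA, as AATCGAAA, starting 14 bases before the start. Of 32851 promoter windows of this length, 2.98% held the response element core, 4.98% the kappa-B letters, 21.3% AANNGAAA, 7.02% the STAT letters and 6.75% the AP-1 letters. The Lgals3 window held none of the 5 motifs, which says only that these letters are not in it.

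Heterozygous arrays stood apart from the other 5. They correlated with the others at 0.976 to 0.987 across probe sets, against 0.990 to 0.995 between wild-type and null arrays. Heterozygous replicate 1 and null replicate 1 carried both Xist and Y-linked transcripts, and without these 2 arrays no gene was called with limma in any comparison, with 1752 (heterozygous against wild type), 430 (null against wild type) and 1380 genes (null against heterozygous) at an unadjusted p under 0.05. The level of Ptprd was 10.86 and 10.89 (log2) in wild type, 9.42 and 9.57 in heterozygous and 9.61, 8.95 and 9.93 in null cells, so all 5 deficient arrays lay below both wild-type arrays. The same held on the other probe sets of Ptprd. Whether its probe sets lie in the targeted part is not known here. Pdgfra and Olig2, which mark oligodendrocyte progenitors, lay above each array's 30th percentile in all 7 samples.

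Comparing heterozygous with wild-type cells asks what differs after loss of 1 Ptprd allele. Lgals3 and Lgals1 were higher in heterozygous cells, and 0 galectin genes were called lower. Of the 5 members tested, 2 passed limma's threshold (adjusted p under 0.05 over 9243 genes). Among all genes tested 10.1% passed, with 4.2% of all genes higher and 5.95% of all genes lower. The median difference of the 5 was 1.45 on the log2 scale, against -0.04 over all genes tested. Lgals4 was not tested because it lay below each array's 30th percentile, the limit set for dim genes, in every sample. The groups did not overlap for Lgals1, Lgals3, Lgals3bp and Lgals8, that is 4 of 5, and they did not overlap for 61.3% of all genes tested (26.2% higher and 35.1% lower). An unadjusted p under 0.05 was reached by 3 of 5 members (Lgals1, Lgals3 and Lgals3bp) and by 29.9% of all genes.

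Lgals3 (chromosome 14) had levels of 5.15 and 4.81 (log2) in wild-type, 8.48 and 8.66 in heterozygous and 5.96, 5.72 and 4.93 in null cells. Both heterozygous arrays were far above all others, while wild-type and null arrays overlapped. Heterozygous exceeded wild type by 3.59 ± 0.32 (log2 difference, SE, limma's adjusted p = 0.00396), which is 12.1-fold, and 19 genes had a smaller p. The wild-type level lay at the edge of detection, with 1 of 2 arrays below the 30th percentile of 4.82, so the exact fold is uncertain. The rise was called without each array in turn, with differences from 3.42 to 3.76. It was not called in an unmoderated model (adjusted p = 0.0571) or without the 2 arrays that carry Xist and Y-linked transcripts (3.68, adjusted p = 0.105).

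Lgals1 (chromosome 15), which encodes galectin-1, had levels of 8.16 and 7.79 (log2) in wild-type, 10.65 and 10.14 in heterozygous and 8.26, 8.64 and 7.25 in null cells. The heterozygous arrays were again the 2 highest, and null arrays lay on both sides of the wild-type arrays. Heterozygous exceeded wild type by 2.42 ± 0.43 (log2 difference, SE, limma's adjusted p = 0.0206), which is 5.35-fold. The other probe set of Lgals1 gave a difference of 2.56 ± 0.40, with levels of 7.50 and 7.26 in wild type and 10.14 and 9.75 in heterozygous cells. A processed copy, Lgals1-ps1, is annotated on chromosome 17, and signal from it could not be told apart. The call of Lgals1 ended without wild type replicate 1 (2.61, adjusted p = 0.0780), wild type replicate 2 (2.23, adjusted p = 0.136) or heterozygous replicate 1 (2.16, adjusted p = 0.133). It also ended in an unmoderated model (adjusted p = 0.113) and without the 2 arrays that carry Xist and Y-linked transcripts (2.16, adjusted p = 0.202).

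**Figure D1:**
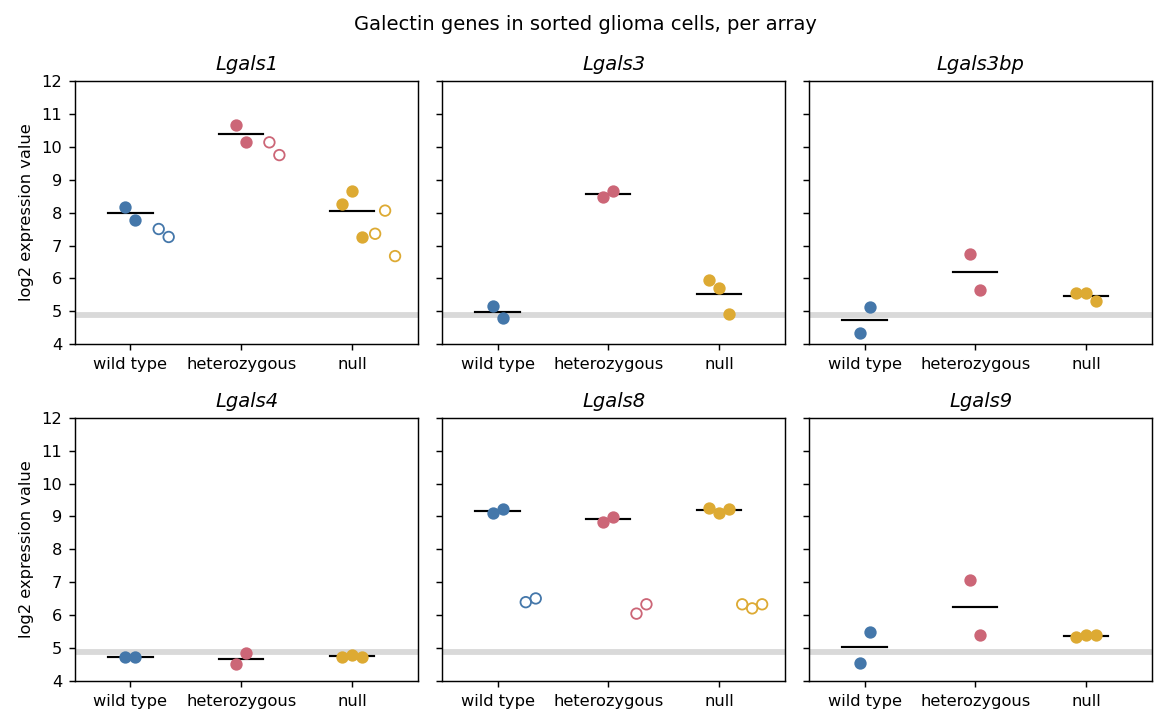
Log2 expression value (vertical axis) of the 6 genes on each array, by genotype. Filled points are the brightest probe set, open points the other one, black lines group means and the grey band the range of the 30th percentile over arrays. The heterozygous arrays of Lgals3 sit at 8.48 and 8.66 and those of Lgals1 at 10.14 and 10.65, above all other arrays.

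Lgals3bp (chromosome 11) encodes a secreted glycoprotein that binds galectin-3 and is known as interferon-inducible. Its levels were 4.35 and 5.14 (log2) in wild-type, 6.73 and 5.66 in heterozygous and 5.55, 5.56 and 5.30 in null cells. Wild type replicate 1 was lowest and heterozygous replicate 1 highest, and the other 5 arrays lay between 5.14 and 5.66. The value of wild type replicate 1 was below that array's 30th percentile of 4.84, so the exact difference from wild type is uncertain. Heterozygous and wild type differed by 1.45 ± 0.38 (log2, SE), with limma's adjusted p = 0.0540, and the difference was not called. Without heterozygous replicate 2 it was 1.99 and called (adjusted p = 0.0337), as it was with array weights (adjusted p = 0.0481) and with a trended, robust spread (adjusted p = 0.0469), and without heterozygous replicate 1 it was 0.91 (adjusted p = 0.227).

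Lgals9 (chromosome 11) encodes galectin-9, which binds the T-cell receptor Tim-3 and is also known as interferon-inducible. Its levels were 4.56 and 5.47 (log2) in wild-type, 7.08 and 5.40 in heterozygous and 5.33, 5.40 and 5.40 in null cells. Heterozygous replicate 1 alone was high, and heterozygous replicate 2 had the same deposited value as null replicates 2 and 3 and lay below wild type replicate 2. Wild type replicate 1 was below its 30th percentile of 4.84, so the exact difference from wild type is uncertain here too. The groups overlapped, and the difference of 1.22 ± 0.52 (log2, SE) was not called with limma (adjusted p = 0.167). Without heterozygous replicate 2 it was 2.06 and called (adjusted p = 0.0346), and without heterozygous replicate 1 it was 0.38 (adjusted p = 0.643).

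Lgals8 (chromosome 13) encodes galectin-8, which binds integrins and marks damaged vesicles for autophagy. Its levels were 9.11 and 9.23 (log2) in wild-type, 8.84 and 8.98 in heterozygous and 9.25, 9.11 and 9.22 in null cells. It was the only tested member with a lower mean in heterozygous cells, where both arrays were below all others. The difference of -0.26 ± 0.11 (log2, SE) was not called with limma (adjusted p = 0.171, 95% interval -0.53 to 0.00). The other probe set gave -0.26 ± 0.13, with levels of 6.39 and 6.51 in wild type, 6.05 and 6.33 in heterozygous and 6.33, 6.21 and 6.33 in null cells.

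Lgals4 (chromosome 7), a galectin of the gut epithelium, had values from 4.51 to 4.85 (log2), below the 30th percentile on 7 of 7 arrays. Several of its deposited values were identical between arrays, both wild-type values among them, so their SD of 0 is no measure of spread. Some mouse strains carry Lgals6, a near-identical copy of Lgals4, whose signal could not be told apart. Among galectins outside the 6, Lgals7 and Lgals12 were also below that percentile on all arrays. Lgals2, a galectin of the gut, had 5.38 in heterozygous replicate 1 and 6.05 to 6.48 on the other arrays, and heterozygous differed from wild type by -0.54 ± 0.30 (limma's adjusted p = 0.279). Lgalsl, a galectin-like gene, had levels of 11.32 and 11.09 in wild type, 10.64 and 10.87 in heterozygous cells and a mean of 11.14 in null cells, and heterozygous differed from wild type by -0.45 ± 0.16 (adjusted p = 0.114). The other probe sets gave -0.11 ± 0.19 for Lgals2 and -0.32 ± 0.17 for Lgalsl.

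Comparing null with wild-type cells asks what differs after loss of both alleles. Of the 5 galectin genes tested, 0 passed limma's threshold and 0 had an unadjusted p under 0.05, and 0% of all genes passed (475 of 9243, or 5.14%, had an unadjusted p under 0.05). Ptprd itself differed by -1.37 ± 0.26 and was not called either (limma's adjusted p = 0.882). The lack of calls therefore does not show that null cells equal wild type. The median difference of the 5 was 0.36 (log2), against 0.00 over all genes. Lgals1 differed by 0.08 ± 0.39 (SE, 95% interval -0.85 to 1.00) and Lgals8 by 0.02 ± 0.10 (-0.22 to 0.26). The other probe sets gave -0.02 ± 0.36 for Lgals1 and -0.16 ± 0.12 for Lgals8. Lgals3 differed by 0.56 ± 0.29 (-0.12 to 1.24) and Lgals9 by 0.36 ± 0.47 (-0.76 to 1.47). Lgals3bp differed by 0.73 ± 0.34 (-0.08 to 1.53), and all 3 null arrays lay above both wild-type arrays, the lower of which was below its 30th percentile. It was the only 1 of 5 members whose groups did not overlap, against 21.7% of all genes tested.

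Comparing null with heterozygous cells asks whether loss of the second allele differs from loss of the first. It shares the heterozygous arrays with the first comparison, so the values are given side by side and not as a second line of evidence. Lgals3 was lower in null cells by -3.03 ± 0.29 (log2 difference, SE, limma's adjusted p = 0.00485), or 8.18-fold, and Lgals1 by -2.34 ± 0.39 (adjusted p = 0.0205), or 5.08-fold. These were 2 of 5 members, while 8.96% of all genes passed, with 3.96% of all genes lower. Lgals3bp differed by -0.73 ± 0.34 (adjusted p = 0.217), Lgals9 by -0.86 ± 0.47 (adjusted p = 0.280) and Lgals8 by 0.28 ± 0.10 (adjusted p = 0.123). The other probe set of Lgals8 gave 0.10 ± 0.12. On that probe set, heterozygous replicate 2 and null replicates 1 and 3 had the same value of 6.33, so the groups overlapped. The groups did not overlap for Lgals1, Lgals3, Lgals3bp and Lgals8, against 43.7% of all genes (25.7% higher and 17.9% lower). An unadjusted p under 0.05 was reached by 3 of 5 members (Lgals1, Lgals3 and Lgals8) and by 28.5% of all genes. The call of Lgals3 ended without heterozygous replicate 1 (-3.12, adjusted p = 0.0530), and that of Lgals1 without heterozygous replicate 1 (-2.09, adjusted p = 0.165) or null replicate 1 (-2.45, adjusted p = 0.0519). Both calls ended in an unmoderated model (adjusted p = 0.0807 for Lgals3 and 0.123 for Lgals1) and without the 2 arrays that carry Xist and Y-linked transcripts (0.141 and 0.269). Lgals9 was called without heterozygous replicate 2 (-1.70, adjusted p = 0.0451).

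**Figure D2:**
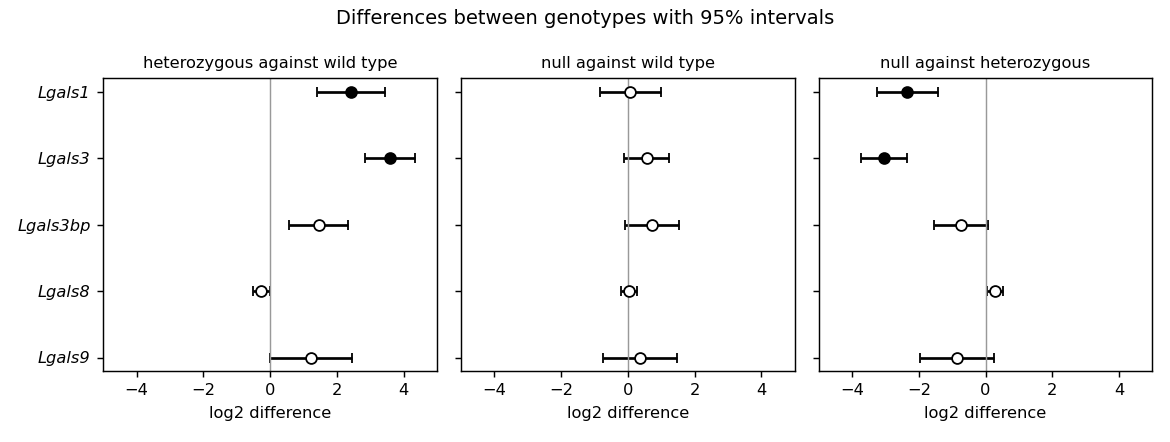
Log2 difference (horizontal axis) of the 5 tested galectin genes in each pair of genotypes, with 95% intervals from limma. Filled points passed the threshold, which were Lgals1 and Lgals3 in heterozygous against wild type (2.42 and 3.59) and in null against heterozygous (-2.34 and -3.03).

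In a test for any difference among the 3 genotypes, Lgals3 (limma F test, adjusted p = 0.00569) and Lgals1 (0.0300) passed, and 5.65% of all genes did. Lgals3bp (0.111), Lgals8 (0.207) and Lgals9 (0.298) did not. The order of mean levels was wild type, null, heterozygous from lowest to highest for Lgals1, Lgals3, Lgals3bp and Lgals9. For Lgals8 it was heterozygous, wild type, null. By the other probe sets it was null, wild type, heterozygous for Lgals1 and heterozygous, null, wild type for Lgals8. Wild type and null, neighbours in each of these orders, were not called different for any member.

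**Figure D3:**
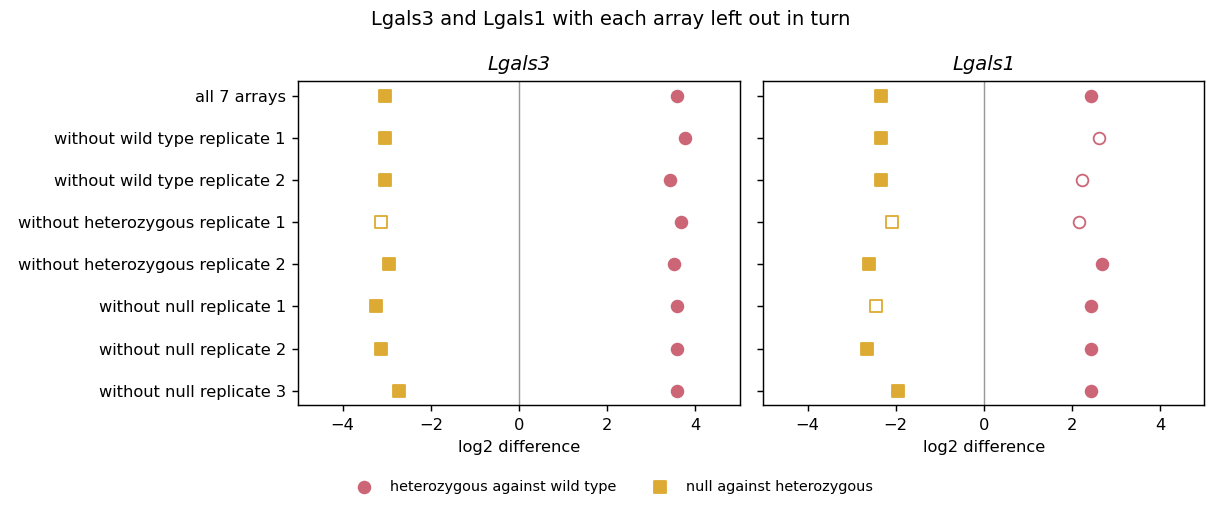
Log2 difference (horizontal axis) of Lgals3 and Lgals1 with all 7 arrays and with each array left out in turn. Circles are heterozygous against wild type and squares null against heterozygous, and filled symbols passed the threshold. Circles of Lgals3 stay between 3.42 and 3.76 and are all filled, while 3 of 7 left-out circles of Lgals1 are open.

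Over the 7 arrays, Lgals1 and Lgals3 correlated at r = 0.96, and Lgals3bp and Lgals9 at r = 0.94, while Lgals1 gave 0.72 with Lgals3bp and 0.65 with Lgals9, and Lgals3 gave 0.73 and 0.62. The likeness of Lgals3bp and Lgals9 lay in heterozygous replicate 1 and wild type replicate 1, since on the other 5 arrays Lgals3bp ran from 5.14 to 5.66 and Lgals9 from 5.33 to 5.47, highest where Lgals3bp was lowest. Lgals8 ran opposite to Lgals1 at r = -0.93. These values describe 7 arrays that share the distance of the heterozygous arrays from the rest. Lgals1 and Lgals3 were high on both heterozygous arrays, whereas Lgals3bp and Lgals9 had their highest value on heterozygous replicate 1 and their lowest on wild type replicate 1. On wild type replicate 1, Lgals3bp and Lgals9 lay below the 30th percentile.

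Genes of the mesenchymal glioma class, listed without the galectins, were high on the same arrays as Lgals3 and Lgals1. Of 21 measured, 13 rose and 0 fell in heterozygous against wild-type cells (median 1.72, log2), and 12 fell and 0 rose in null against heterozygous cells. Of all genes tested, 4.2% were called higher in the first comparison and 3.96% lower in the second. Anxa2, a membrane-binding annexin, rose by 2.74 ± 0.12 (SE, limma's adjusted p = 0.00078), Anxa1 by 1.99 and the membrane protein Emp3 by 2.75. Timp1, an inhibitor of metalloproteases, was at 8.51 and 7.88 in heterozygous and 4.22 to 4.60 in the other cells. It was 1 of 2 of the 13 that were above the dim limit only on heterozygous arrays, so its exact difference is not given. The same limit holds for 2 of the 12 falls. The mean level of the list was 6.49 to 6.85 in wild-type, 8.38 and 8.49 in heterozygous and 6.69 to 7.04 in null cells. Its correlation with Lgals3 was r = 0.98 over 7 arrays and 0.63 over the 5 arrays left without the heterozygous ones. The 13 rises became 9 without wild type replicate 1, 5 without wild type replicate 2, 4 of 19 without heterozygous replicate 1 and 7 of 19 without heterozygous replicate 2. The 12 falls became 3 and 7 without heterozygous replicates 1 and 2.

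Interferon response genes had the lowest and the highest array in common with Lgals3bp and Lgals9. The mean level of 22 measured interferon genes was 6.36 and 7.11 (log2) in wild-type, 8.52 and 7.58 in heterozygous and 7.40, 7.31 and 6.94 in null cells. The list was lowest on wild type replicate 1 and highest on heterozygous replicate 1. Its correlation over 7 arrays was r = 0.98 with Lgals3bp, 0.93 with Lgals9, 0.80 with Lgals1 and 0.79 with Lgals3. Over the 5 arrays left without those 2 it was 0.84 with Lgals3bp, 0.92 with Lgals1, 0.87 with Lgals3 and -0.41 with Lgals9. The closer likeness of Lgals3bp and Lgals9 to this list than of the other members therefore rested on those 2 arrays. In heterozygous against wild type 4 of the 22 rose and 1 fell (median 1.46), with rises of the antiviral membrane proteins Ifitm2 (1.49, below the dim limit in wild type) and Ifitm3 (3.02), the GTPase Gbp2 (2.68) and Mx2 (0.79) and a fall of Ifit2 (-0.50). In null against heterozygous 3 fell and 0 rose. Of all genes tested, 4.2% were called higher and 5.95% lower in heterozygous against wild type, and 3.96% lower in null against heterozygous. The 4 rises became 8 without heterozygous replicate 2, 2 without heterozygous replicate 1, 2 without wild type replicate 1 and 1 without wild type replicate 2. The 3 falls became 1 without heterozygous replicate 1.

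**Figure D4:**
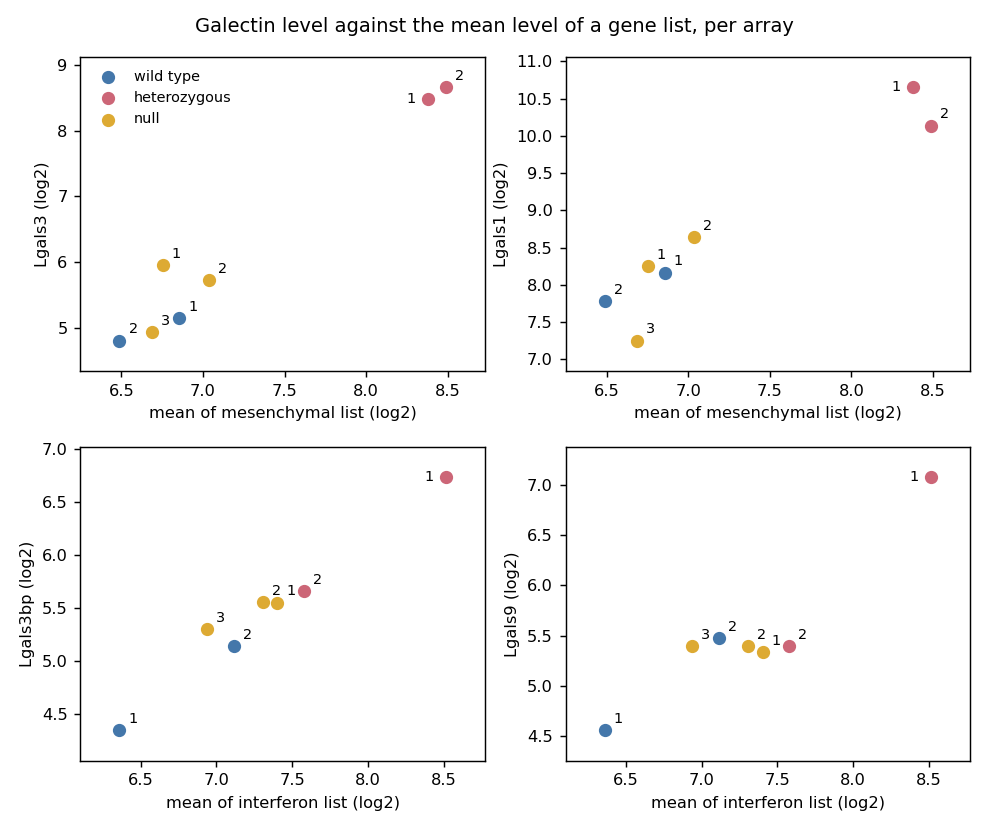
Level of a galectin gene (vertical axis, log2) against the mean log2 level of a gene list (horizontal axis) on each array, numbered by replicate and coloured by genotype. Lgals3 and Lgals1 are highest on both heterozygous arrays with the mesenchymal list, while Lgals3bp and Lgals9 are highest on heterozygous replicate 1 and lowest on wild type replicate 1 with the interferon list.

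Markers of microglia and macrophages, which also express Lgals3, moved with Lgals3 and Lgals1. The list held 37 genes, and 16 of the 26 measured rose and 0 fell in heterozygous against wild type, and 13 fell and 0 rose in null against heterozygous. Of all genes tested, 4.2% were called higher in the first comparison and 3.96% lower in the second. Cd53, a leukocyte tetraspanin, rose by 1.72 and the fractalkine receptor Cx3cr1 by 0.78. The leukocyte antigen Ptprc, itself a galectin-1 partner, was at 5.88 and 5.62 in heterozygous and 4.32 to 4.58 in the other cells, and Cd68 at 5.50 and 5.66 against 4.39 to 4.71. These were 2 of the 3 rises whose gene was above the dim limit only on heterozygous arrays, so they passed the filter through the group in which they are high and their exact difference is not given. The same limit holds for 3 of the 13 falls. The summed signal of the 33 markers on the array was 1420 and 1897 units in wild-type, 3525 and 4626 in heterozygous and 1610 to 2286 in null cells. Over 7 arrays the mean level of the measured markers correlated at r = 0.94 with Lgals3 and 0.91 with Lgals1. Over the 5 arrays left without the heterozygous ones, these values were 0.46 and 0.65. Of 8 defining markers, Csf1r, Cx3cr1 and Tyrobp were above the 30th percentile on 7 of 7 arrays and Lyz2 on 6, while Ptprc and Cd68 were above it on the 2 heterozygous arrays, Aif1 on 1 array and Itgam on 0. Of the heterozygous pair, replicate 2 had the higher marker sum and the higher Lgals3, and the lower Lgals1, Lgals3bp and Lgals9. The part of these cells in the galectin values was not tested, and in bulk RNA more cells of a type and more RNA per cell cannot be told apart. The 16 rises became 7 without wild type replicate 1, 0 without wild type replicate 2, 4 of 23 without heterozygous replicate 1 4 of 22 without heterozygous replicate 2, and 10 and 9 without null replicates 1 and 3. The 13 falls in null against heterozygous became 4 without heterozygous replicate 1, heterozygous replicate 2 or null replicate 1, 5 without null replicate 3 and 9 without either wild-type array.

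Markers of other cell types went in different directions from list to list in heterozygous against wild type. Over all genes tested, 4.2% were called higher and 5.95% lower. Of 10 oligodendrocyte progenitor markers 5 fell and 0 rose, which were Rlbp1 (-1.76), Olig2 (-0.67), Ptprz1 (-0.61), Cspg5 (-0.84) and Pdgfra (-0.65), and of 14 astrocyte markers 3 rose (Gfap by 1.49, Sox9 by 1.34, and Aldh1l1, at or above 5.71 against 4.44 to 4.75, below the dim limit outside heterozygous cells) and S100b fell (-0.76). Of 5 granulocyte markers, Lcn2 alone was called higher, at 7.29 and 9.16 in heterozygous and 3.51 to 3.94 in the other cells, which lay below the dim limit. Of 10 endothelium and pericyte markers 1 rose (Tagln by 1.58) and of 6 ependyma and choroid plexus markers 2 (Foxj1 by 1.71 and Rarres2 by 1.97). Of 8 neuron markers 2 fell (Snap25 by -0.84 and Gad1 by -1.24). Of 3 lymphocyte markers (Cd3e at 0.28, adjusted p = 0.137) and 9 myelin markers (Mag at 0.94, adjusted p = 0.0911) 0 were called, and no red blood cell gene was above the filter. The 5 falls of progenitor markers became 1 without wild type replicate 1, 0 without wild type replicate 2, 1 without heterozygous replicate 1, 7 without heterozygous replicate 2 and 2, 3 and 2 without null replicates 1, 2 and 3. All other calls in these cell type lists were lost without wild type replicate 2 and, likewise, without heterozygous replicate 1.

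Few enzymes that make the sugar ligands of galectins were called. Over all genes tested, 4.2% were called higher and 5.95% lower in heterozygous against wild type. Of 15 measured enzymes that build or extend galactose-ending chains, 1 fell and 0 rose, which is near that share. The fall was that of Man2a1, the Golgi mannosidase that trims chains before branching, at -0.49 ± 0.11 (log2 difference, SE, limma's adjusted p = 0.0423). The median of this list was -0.11, against -0.04 over all genes. Of 7 genes that cap galactose with sialic acid or remove the cap, the sialyltransferases St3gal2 (-0.60 ± 0.14, adjusted p = 0.0459) and St3gal5 (-0.61 ± 0.15, adjusted p = 0.0489) fell and 0 rose, with a median of -0.21. In null against heterozygous the same pair was higher, by 0.59 and 0.63, and 0 of the 15 enzymes passed. Of all genes, 5% were called higher there and 3.96% lower. In heterozygous against wild type the 2 sialyltransferase falls became 0 without any 1 of 6 arrays and 1 without null replicate 3, and the Man2a1 list had 0 calls without any 1 of 6 arrays and 2 falls without heterozygous replicate 2. The 2 rises in null against heterozygous became 1 without heterozygous replicate 2 or null replicate 2 and 0 without any of the other 5 arrays.

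Most binding partners were not called, and the calls went in both directions. Of 32 measured surface and matrix partners, 3 rose and 2 fell in heterozygous against wild type, at a median of 0.04. Over all genes tested, 4.2% were called higher and 5.95% lower, at a median of -0.04. These shares also stand beside the intracellular and lysosome lists below. The hyaluronan receptor Cd44 rose by 5.08 ± 0.95 (log2 difference, SE, limma's adjusted p = 0.0244) and the transforming growth factor receptor Tgfbr2 by 1.11. The adhesion molecules L1cam (-1.60) and Cntn1 (-0.53) fell. Ptprc, the third to rise, was above the dim limit only on heterozygous arrays, so it passed the filter through that group. It is also counted among the macrophage rises. Cd44 was uneven within groups, at 6.21 and 3.79 in wild-type, 9.88 and 10.27 in heterozygous and 4.60, 6.45 and 3.96 in null cells, with 3 of the 5 arrays outside heterozygous cells below the dim limit. In null against heterozygous Cd44 and Ptprc, the latter with the same limit, fell and L1cam rose, and 0 were called without heterozygous replicate 1. Of all genes, 5% were called higher there and 3.96% lower. The 3 rises and 2 falls in heterozygous against wild type became 2 and 0 without wild type replicate 1, 0 and 0 without wild type replicate 2 or heterozygous replicate 1, and 0 and 1 without heterozygous replicate 2. Of 6 intracellular partners, Ctnnb1 (beta-catenin, -0.51) and the survival factor Bcl2 (-0.59) fell in heterozygous against wild type and 0 rose. Of 20 lysosome and autophagy genes, the cathepsins Ctss (1.78, also a macrophage marker) and Ctsz (1.27) rose and the autophagosome protein Map1lc3b fell (-0.71). The intracellular list had 0 falls without either wild-type or either heterozygous array and 1 without null replicate 1 or null replicate 3. The lysosome list had 0 calls without wild type replicate 2 or heterozygous replicate 1, 1 rise alone without wild type replicate 1 and 1 fall alone without heterozygous replicate 2. In null against wild type 0 genes of these 5 lists and of the mesenchymal, interferon and macrophage lists passed limma's threshold.

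The genes most like each member over the 7 arrays were found by Pearson correlation among the 9243 genes tested. They were picked on these same arrays. Their differences between genotypes and the extreme arrays they share with a member therefore follow from the pick and are a description only. For Lgals3 they were Efhd2 (r = 0.995), a calcium-binding actin regulator, the heparan sulphate proteoglycan Sdc4 (0.991) and the inflammasome adaptor Pycard (0.989). In heterozygous against wild type they rose by 0.87, 2.64 and 1.33. For Lgals1 they were the actin regulators Diaph3 (0.990), Rai14 (0.989) and Iqgap1 (0.986), which rose by 0.81, 0.69 and 1.04. For Lgals3bp they were the transporter Slc16a6 (0.978), Dpf1 (0.974) and the interferon-induced gene Ifit3 (0.973). Ifit3 had 7.15 and 8.25 in wild-type, 9.45 and 8.28 in heterozygous and 8.57, 8.44 and 8.15 in null cells, the same lowest and highest arrays as Lgals3bp. For Lgals9 they were the glutamate receptor subunit Grin2d (0.988), the GTPase Rala (0.988) and the kinase Stk40 (0.972). Their rank (Spearman) correlations with Lgals9 were 0.37, 0.67 and 0.85. Grin2d was at 5.70 on heterozygous replicate 1 and at 4.98 to 5.26 on the other arrays. None of them was called in heterozygous against wild type (limma's adjusted p = 0.206, 0.235 and 0.309). For Lgals8 they were Hsd17b11 (0.998), Dnajc12 (0.997) and Lad1 (0.997), and Lad1 fell in heterozygous against wild type by 0.80. Its heterozygous values of 4.38 and 4.78 lay below the dim limit, so the exact size of the fall is uncertain.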

How the data were processed

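The values were deposited by the authors as log2 expression values per probe set, and the tools in the submitters' processing notes are RMA and Partek 6.6. RMA sets arrays to a common distribution, so a shift of all genes cannot be seen. The number of arrays limits the precision. Probe sets were named from the platform annotation, and 64 controls, 691 probe sets of several genes and 1555 unnamed ones were left out. The brightest probe set stood for each of 12393 genes, and the 9243 that exceeded an array's 30th percentile in 2 or more samples were tested. A mean per genotype was fitted over 7 arrays with limma 3.58.1 in R 4.3.3 (4 residual degrees of freedom, two-sided moderated tests, Benjamini-Hochberg adjustment over all genes tested, threshold 0.05), and the fit was tested on simulated data.

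The galectin genes and 17 lists of related genes and cell type markers were chosen with earlier results of these data known. Named genes are the members, other galectins and Ptprd, up to 4 called genes of smallest p per list in heterozygous against wild type (the gene of smallest p where none was called), and the 3 genes most correlated with each tested member. Cntn1, Ifit2, Pdgfra and the defining markers Csf1r, Tyrobp, Lyz2, Itgam and Aif1 were named outside that rule. Replicate numbers were not used to pair samples. Alternatives changed the filter, probe set rule, spread estimate, arrays, weights, centring and covariates.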

Additional observations from a re-analysis of the deposited data

How the results depend on the processing

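In heterozygous against wild type, the 2 galectin calls became 0 with an unmoderated model and 0 without the 2 arrays that carry both Xist and Y-linked transcripts, and 1 to 4 with 1 array left out. In null against heterozygous they became 0, 0 and 0 to 3, and 1 with the replicate block. In null against wild type they were 0 in all settings run. The direction of Lgals1, Lgals3, Lgals3bp, Lgals8 and Lgals9 in heterozygous against wild type was kept in all settings run that tested them. In null against wild type, the differences of Lgals1, Lgals8 and Lgals9 changed sign in some settings. With all 7 arrays they were 0.08, 0.02 and 0.36, and none was called. Lgals1 was -0.028 without the 2 arrays and -0.22 to 0.47 with 1 array left out (below 0 without wild type replicate 2, null replicate 1 or null replicate 2). Lgals8 was -0.070 with probe sets of a gene averaged, -0.0047 without the 2 arrays and -0.035 to 0.081 with 1 array left out. Lgals9 was -0.098 to 0.82 with 1 array left out, below 0 without wild type replicate 1.

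Over all genes, the 938 calls in heterozygous against wild type became 97 with an unmoderated model, 218 with only the 2 genotypes compared, 217 with the replicate block, 372 with the 3' minus 5' covariate, 0 without the 2 arrays and 33 to 769 with 1 array left out. The 828 calls in null against heterozygous became 2, 355, 25, 471 and 0 in the same settings, 482 with array weights and 55 to 735 with 1 array left out. In null against wild type 1 gene was called with probe sets averaged and 1 with an unmoderated model, and 0 to 1 with 1 array left out. The 522 calls for any difference became 21 with an unmoderated model, 821 with an intensity trend and robust spread, 29 with the replicate block, 217 with the covariate, 0 without the 2 arrays and 9 to 479 with 1 array left out. The causes of these changes were not tested.

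Deviations of same-numbered arrays correlated at r = 0.11 between wild type and heterozygous, -0.18 and -0.41 between wild type and null, and 0.02 and -0.19 between heterozygous and null. Not every pair exceeded 0.1, so the numbers were not taken as pairs. With the replicate block, Lgals1 in null against heterozygous was -1.94 (adjusted p = 0.0689). In heterozygous against wild type the 16 macrophage rises became 1 with an unmoderated model, 2 with only the 2 genotypes compared and 3 with the block, the 13 mesenchymal rises 4, 8 and 9, the 5 progenitor falls 0, 1 and 1, and the 2 sialyltransferase falls and the Man2a1 fall 0 in each. In null against heterozygous the 13 macrophage falls became 0 with an unmoderated model and 0 with the block.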
